A study of Homo sapiens with 6 samples.

Results

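A set of 49 genes was close to silent in control DMS53 cells and carried reads in every library after OC2 enforced expression. They were chosen by their counts: a gene entered with at most 15 counts summed over the 3 control libraries and at least 100 summed over the 3 OC2-OE libraries. Of 62696 annotated genes, 53 met both limits, and DMBT1, CA6, CFB and SERPING1 were left out by name, which left the 49 members described here. CCL20 and CXCL10 were also to be left out and did not meet the limits, with 19 and 67 control counts.

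DMS53 is an established small cell lung cancer (SCLC) cell line with neuroendocrine (NE) features. The control group (n = 3) was transduced with an empty lentiviral vector. The OC2-OE group (n = 3) received a vector that constitutively expresses OC2 with a green fluorescent tag. By its name in the paper, the empty vector also carries that tag. OC2 is the transcription factor encoded by ONECUT2, and the study asked what it does to the plasticity of these cells. Both groups were selected with puromycin and come from 1 line, and whether single clones were picked is not given in the sources used here. In bulk RNA, a few cells with much transcript and many cells with little cannot be told apart.

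Counts of read pairs on the exons of each gene totalled 16533284 to 19099337 per library. ONECUT2 was counted 465, 412 and 394 times in control and reached 74031, 68853 and 72763 counts after OC2 enforced expression, so the libraries matched their labels. Its log2 fold change was 7.32 (edgeR's quasi-likelihood test, adjusted p = 1.95e-158), and reads of the introduced and the endogenous sequence fall in the same count. All 10 NE marker genes examined were expressed, with summed levels of 3723 to 3762 counts scaled to a common library size (CPM) in control and 4614 to 4663 CPM in OC2-OE libraries. Of the 10, 6 were called lower and 3 higher, and the sum was raised by SCG2 (801 to 2273 CPM) and UCHL1 (1077 to 1430 CPM).

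Cut-homeodomain factors such as OC2 bind DNA directly and act in the development of liver, pancreas, gut and nervous system. Many genes of epithelial secretion, ion transport and inflammation are kept silent in cells of other lineages and are read only when the factors that act on their promoters and enhancers are present. Products of such genes often leave the cell or sit in its membrane, as secreted ligands, proteases, inhibitors, receptors, channels and transporters.

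The limits were passed by 0.154% of the 34511 genes with any count. The members held 394 counts in the control libraries together (0.000748% of all control counts) and 15329 in the OC2-OE libraries (0.0285%), and the 5 highest held 41.7% of the latter. All 49 passed the filter on low counts through the OC2-OE libraries, so no test is given for any of them. In each member the lowest OC2-OE count was above the highest control count, which the limits favour. Among all tested genes, every OC2-OE library lay above every control library in 36.5%.

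**Figure D1:**
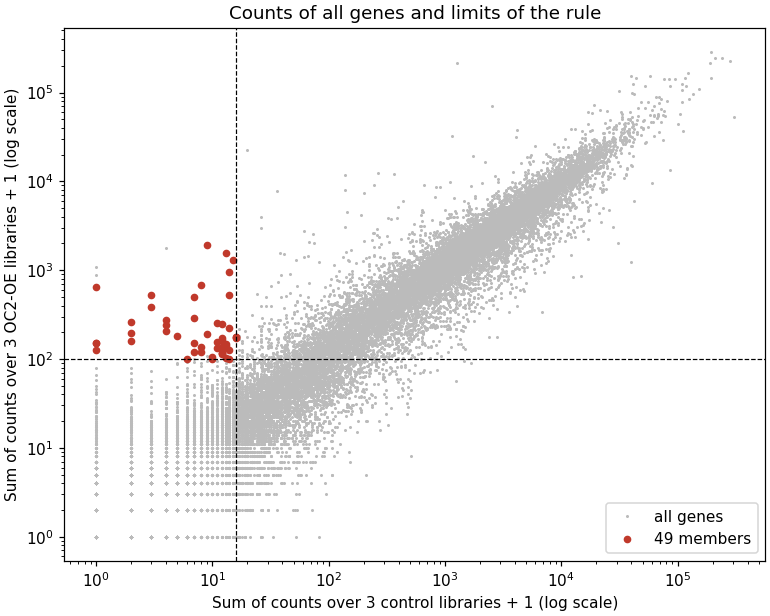
Summed counts of every gene in the 3 control libraries (horizontal axis, plus 1, log scale) and the 3 OC2-OE libraries (vertical axis, plus 1, log scale), with dashed lines at the limits of 15 and 100. The 49 members (red) fill the upper left corner, and grey points in that corner are the 4 genes left out by name.

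Near zero did not mean absent in most members. In the control libraries 4 members had 0 counts, 8 had 1 to 3 and 37 had 4 to 15, with a median of 9 over the group, and 30 had a count in all 3 libraries. In the OC2-OE libraries the sums ran from 100 to 1921 with a median of 171, and 31 members stayed under 200. For the 45 members with a control count, the ratio of the groups, scaled for library size, ran from 7.27 (CX3CR1) to 251 (COL17A1) with a median of 18.7. The limits themselves favour high ratios, and the exact 95% intervals given with them below cover counting error only.

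**Figure D2:**
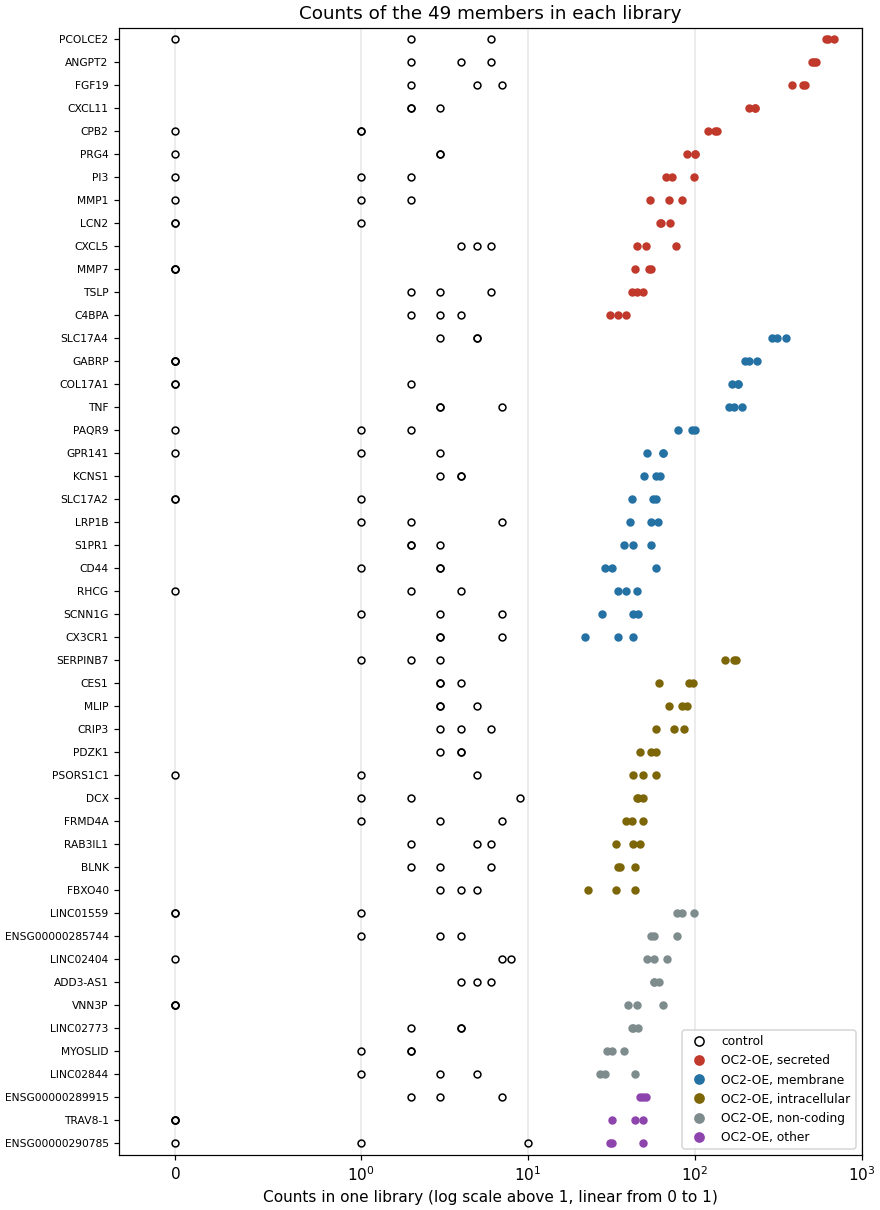
Counts of each member in each library (horizontal axis, log scale above 1), with open circles for the 3 control libraries and filled circles for the 3 OC2-OE libraries, coloured by class of product. No member has an OC2-OE library at or below a control library, and the filled circles run from 22 counts (CX3CR1) to 687 (PCOLCE2).

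By general knowledge of their products, 13 members encode secreted proteins, 14 membrane proteins and 11 intracellular proteins, 8 are non-coding genes and 3 are of other kinds. The secreted class held 47.8% of the members' OC2-OE counts, and the membrane class 27.3%. By annotation 39 members (79.6%) were protein-coding and 7 (14.3%) were long non-coding RNAs (lncRNAs), beside 80.7% and 12.9% of the tested genes. VNN3P is among the protein-coding genes in that annotation and a pseudogene by its symbol, and is counted as non-coding here. Classes of product were not assigned to the other tested genes, so no share is given beside them.

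Among secreted products the growth factors and a collagen-processing protein came first. PCOLCE2, which enhances the enzyme that trims procollagen, was counted 2, 0 and 6 times in control and 687, 626 and 608 times in OC2-OE libraries. Its ratio, 227 (95% interval 115 to 526), rests on 8 control counts, and the OC2-OE libraries differed little, with a coefficient of variation of 4.32%. ANGPT2, a ligand of the endothelial receptor TEK, went from 6, 4 and 2 to 517, 508 and 536 counts, a ratio of 123 (70.1 to 238). FGF19, the gut hormone that restrains bile acid synthesis in the liver, had 7, 2 and 5 control counts and 461, 382 and 444 OC2-OE counts. FGF19 was the highest member per length, at 12.9 ± 0.693 RPKM (SD, n = 3), which is CPM divided by the exon length in kilobases, followed by PCOLCE2 at 9.94 ± 0.430 RPKM.

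The secreted chemokines and cytokines were CXCL11, CXCL5 and TSLP. CXCL11, a ligand of CXCR3, a chemokine receptor of T cells, was read 3, 2 and 2 times in control and 212, 229 and 231 times in OC2-OE libraries, a ratio of 90.7 (43.8 to 226). CXCL5, which draws neutrophils, stood at the control limit with 6, 4 and 5 counts and reached 77, 51 and 45, with the first OC2-OE library highest. TSLP, an epithelial alarm cytokine, had 136 OC2-OE counts against 11 in control. The ratios of CXCL5 and TSLP were 10.9 and 11.7.

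Proteases, inhibitors and matrix proteins formed the largest secreted subgroup, with 6 members. CPB2, a carboxypeptidase that slows clot breakdown, had 1, 1 and 0 control counts and 137, 132 and 120 OC2-OE counts. PRG4, the joint lubricant lubricin, had 0, 3 and 3 control counts and 100, 100 and 90 OC2-OE counts. PI3, the elastase inhibitor elafin, went from 2, 1 and 0 to 99, 73 and 67 counts and ranked 3 among the members per length (7.90 ± 1.37 RPKM). These are low control counts, and the ratio of CPB2, 184, has an interval of 50.5 to 1522. MMP1, an interstitial collagenase, was counted 2, 1 and 0 times in control and 70, 54 and 84 times in OC2-OE libraries. MMP7, the epithelial protease matrilysin, had no control count and 55, 53 and 44 OC2-OE counts, so that it was at least 47.9-fold higher against a floor of 3 counts over the control group. The 2 secreted proteins of innate defence were LCN2, which binds bacterial iron carriers and went from 0, 0 and 1 to 62, 63 and 71 counts, and C4BPA, a chain of a complement inhibitor, with 105 OC2-OE counts against 9.

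Among membrane products, transporters and channels were the largest subgroup, with 6 members. SLC17A4, an organic anion transporter of the gut, had 5, 3 and 5 control counts and 354, 290 and 310 OC2-OE counts, a ratio of 69.3 (40.3 to 131). SLC17A2, a transporter gene of the same cluster on chromosome 6, had 0, 1 and 0 control counts and 59, 42 and 56 OC2-OE counts. GABRP, the pi subunit of a GABA receptor found in epithelia, had no control count and 211, 199 and 237 OC2-OE counts, at least 204-fold higher against the floor. By summed counts GABRP was the highest member of those with no control count. The others were KCNS1 (171 OC2-OE counts against 11), a silent potassium channel subunit, RHCG (119 against 6), an ammonia channel, and SCNN1G (117 against 11), the gamma subunit of the epithelial sodium channel.

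Adhesion molecules, receptors and a membrane-bound cytokine made up the rest of that class. COL17A1, the collagen of hemidesmosomes that anchor epithelia, had 0, 0 and 2 control counts and 181, 168 and 182 OC2-OE counts. Its ratio was 251, with an interval of 69.1 to 2076 because it rests on 2 control counts, and this interval overlaps that of LINC01559 (247, 43.9 to 9775). TNF, made as a membrane protein and then shed, went from 3, 7 and 3 to 191, 161 and 172 counts, a ratio of 38.1 (22.1 to 72.0). PAQR9, a receptor of the progestin and adiponectin receptor family, had 0, 2 and 1 control counts and 97, 80 and 100 OC2-OE counts. CD44, the hyaluronan receptor, was uneven, at 59, 29 and 32 OC2-OE counts against 3, 1 and 3, the widest spread among the members (coefficient of variation 36.3%). GPR141, an orphan receptor, had 182 OC2-OE counts, LRP1B, a large endocytic receptor, 156, S1PR1, which senses sphingosine-1-phosphate, 136, and CX3CR1, the receptor of fractalkine, 100.

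The intracellular class was led by SERPINB7, a protease inhibitor of clade B, with 1, 3 and 2 control counts and 173, 177 and 152 OC2-OE counts, a ratio of 79.0 (36.1 to 216). CES1, the liver carboxylesterase, went from 4, 3 and 3 to 93, 61 and 98 counts. How reads were shared with its near-identical pseudogene CES1P1, which had 0 control counts and at most 2 OC2-OE counts, was not tested. MLIP, a lamin-interacting protein of muscle, had 3, 5 and 3 control counts and 90, 70 and 84 OC2-OE counts. CRIP3, a LIM-domain protein, had 3, 4 and 6 against 87, 59 and 75, and 15.9% of its exon bases are shared on the same strand with ZNF318. The remaining 7 had at most 161 OC2-OE counts, among them PDZK1, a scaffold for transporters, DCX, a microtubule protein of migrating neurons, and BLNK, an adaptor of B cell receptor signalling. DCX had 9 of its 12 control counts in control replicate 2.

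The 8 non-coding members had 100 to 261 OC2-OE counts and the 3 unclassified ones 112 to 147. LINC01559 had 0, 0 and 1 control counts and 99, 84 and 78 OC2-OE counts, the most of the 7 lncRNAs. ENSG00000285744, LINC02404 and ADD3-AS1 followed with 190, 177 and 175 OC2-OE counts. VNN3P, a pseudogene of the vanin family, had no control count and 45, 40 and 65 OC2-OE counts, at least 47.2-fold higher. TRAV8-1, a variable segment of the T cell receptor alpha locus, had no control count and 49, 32 and 44 OC2-OE counts, at least 39.4-fold higher. Of 10 T and NK cell marker genes, CD3E, CD3G, CD2, NKG7 and PRF1 had 0 counts in all 6 libraries, and the summed level of the 10 was 1.17 to 2.03 CPM in control and 0.835 to 1.04 CPM in OC2-OE libraries. ENSG00000290785, whose exons overlap GUCY2EP over 42.2% of their bases on the same strand, had 10 of its 11 control counts in control replicate 2 and 32, 49 and 31 OC2-OE counts.

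Per length, the members stayed low in OC2-OE cells. Their level ran from 0.162 RPKM (FRMD4A) to 12.9 RPKM (FGF19) with a median of 1.18, and 28 were at 1 RPKM or more. The median of all tested genes was 3.76 RPKM, which 7 members exceeded, and 3777 tested genes were above FGF19. The 10 highest were FGF19, PCOLCE2, PI3, CXCL11, TNF, TRAV8-1, ANGPT2, SLC17A4, ENSG00000289915 and SERPINB7. Neighbours in this order often did not differ beyond their spread, as with TNF (5.70 ± 0.212 RPKM) and TRAV8-1 (4.81 ± 0.795 RPKM).

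**Figure D3:**
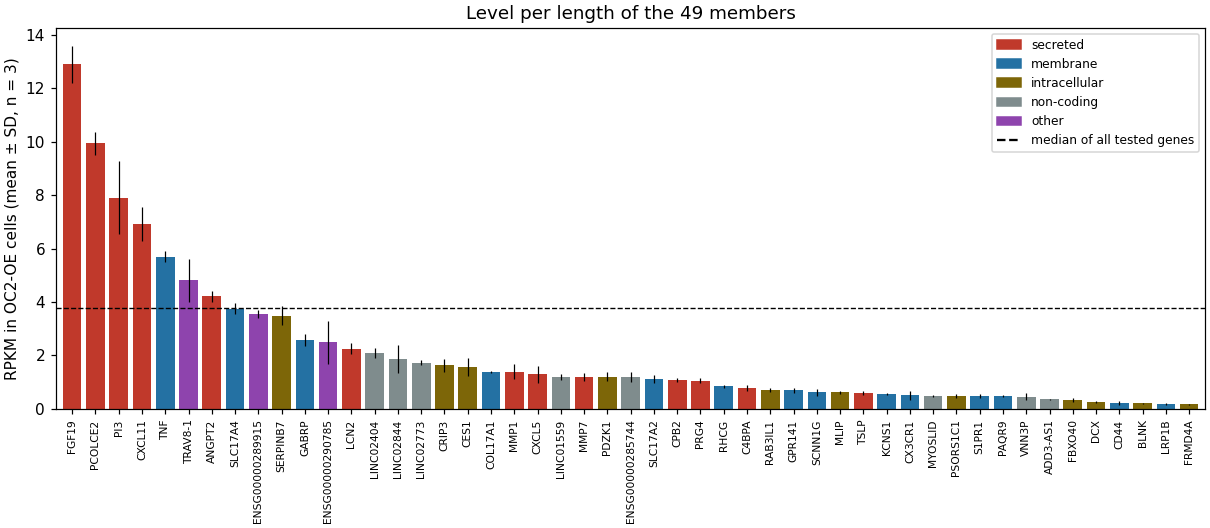
Level per length of each member in OC2-OE cells (RPKM, bars are means and error bars SD, n = 3), coloured by class of product, with a dashed line at 3.76 RPKM, the median of all tested genes. FGF19, PCOLCE2, PI3 and CXCL11, all secreted, are the 4 highest bars, and 7 bars end above the line.

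The index of dispersion over the OC2-OE libraries, which averages 1 for counting error alone, had a mean of 1.36 over the members, was above 1 in 24 of them and was highest in CD44, at 5.29. The highest OC2-OE library by CPM was replicate 1 in 18 members, replicate 2 in 13 and replicate 3 in 18, so no single library carried the set.

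At the control limit of 15 stood LINC02404, ADD3-AS1 and CXCL5, and at the OC2-OE limit of 100 stood CX3CR1, MYOSLID and LINC02844. Just outside the control limit, with 16 counts each, were GRPR, PCP2, SERPINA6, LVRN and ENSG00000290034, with 109 to 215 OC2-OE counts. Just under the OC2-OE limit were DIO2 with 98 counts and CD36 and OR7E91P with 95. With the limits exchanged between the groups (at least 100 control counts and at most 15 OC2-OE counts), 18 genes would enter.

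The region upstream of the start was then read for sequence features. The rule did not use sequence, but it kept only genes close to silent in control cells. Other genes silent in control were not compared separately. A difference from the tested genes therefore cannot be told apart from a trait of genes silent in this line. RefSeq promoters on GRCh38.p14 were matched for 33 of the 49 members and not for ANGPT2, FGF19, LINC01559, CES1, PI3, MMP1, ENSG00000285744, KCNS1, LRP1B, VNN3P, ENSG00000289915, RHCG, SCNN1G, ENSG00000290785, TRAV8-1 and LINC02844. The 250 bases upstream of the start were searched on both strands. Only the first promoter listed for a gene was used. In some members, among them CXCL11, GABRP, FRMD4A, MLIP and MYOSLID, it lies inside the annotated gene body. Which start these cells used was not tested. CpG pairs, which are dense in promoters of widely expressed genes, had a median of 3 in the members, beside 20 in the 12264 tested genes with a promoter and 11 in all 27305 promoters. At least 10 CpG were present in 8 of the 33 (24.2%), beside 81.7% of the tested genes and 51.9% of all promoters.

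The letters ATCAAT (or ATTGAT on the other strand), part of the sequence that Cut-homeodomain factors recognise, were found in 6 of the 33 promoters (18.2%), beside 5.69% of all promoters and 3.10% of tested genes. All 6 had fewer than 10 CpG, and among promoters under that number the letters were in 24.0% of the 25 members and 8.47% of 2242 tested genes. The 6 are PDZK1, FBXO40, CXCL11, SLC17A4, GPR141 and CPB2, and SLC17A4 holds them at 2 places. A stretch of 60 bases around each match is shown to give its setting, 5′ to 3′ on the strand of the gene, with the matched letters in capitals.
CPB2: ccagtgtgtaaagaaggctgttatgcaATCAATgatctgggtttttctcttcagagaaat
CXCL11: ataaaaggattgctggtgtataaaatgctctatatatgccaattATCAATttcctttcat
PDZK1: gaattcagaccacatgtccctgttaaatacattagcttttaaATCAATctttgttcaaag
SLC17A4, nearer match: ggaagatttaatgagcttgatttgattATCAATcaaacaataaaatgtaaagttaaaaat
SLC17A4, farther match: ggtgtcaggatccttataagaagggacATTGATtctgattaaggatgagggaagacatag
GPR141: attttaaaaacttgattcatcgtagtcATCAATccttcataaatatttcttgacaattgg
FBXO40: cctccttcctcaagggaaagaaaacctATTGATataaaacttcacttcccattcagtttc
These stretches lie at chr13:46105036-46105095 (minus strand), chr4:76036071-76036130 (minus), chr1:145707401-145707460 (minus), chr6:25754573-25754632 and chr6:25754486-25754545 (plus), chr7:37683565-37683624 (plus) and chr3:121593159-121593218 (plus). The match began 16 bases upstream of the start in CXCL11, 18 in PDZK1, 35 in CPB2 and 99 in the nearer match of SLC17A4, and 174 or more in GPR141 and FBXO40. A match of letters is a description and not evidence that OC2 binds there.

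Of the other letters searched, TATAAA, which reads TTTATA on the other strand, was in 8 of 33 promoters (24.2%), beside 11.1% of all and 5.85% of tested genes, and TGACTCA, which reads TGAGTCA, the letters of AP-1 sites, in 4 (12.1%, beside 4.16% and 2.7%). Among promoters with fewer than 10 CpG, TATAAA was in 28.0% of members and 15.1% of tested genes, and TGACTCA in 16% and 7.05%. TTCNNNGAA, the letters of STAT sites, was in 5 (15.2%, beside 6.78% and 5.6%). The NF-kB motif was in 2 (6.06%, beside 1.73% and 1.96%), the interferon-response motif in 1 (3.03%, beside 3.07% and 2.21%), and ATCGAT in none. MMP7 and CXCL5 are shown because their matches lie near the start in genes of proteolysis and inflammation, TGAGTCA 67 bases upstream in MMP7 and the NF-kB motif 91 bases upstream in CXCL5.
MMP7: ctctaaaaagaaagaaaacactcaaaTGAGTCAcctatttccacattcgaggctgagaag
CXCL5: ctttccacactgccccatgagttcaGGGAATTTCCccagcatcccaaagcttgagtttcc
They lie at chr11:102530781-102530840 (minus strand) and chr4:73998734-73998793 (minus). In CXCL5 the match to TTCNNNGAA overlaps the one shown, and in FBXO40 a match to TATAAA overlaps the ATTGAT by 1 base.

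Members lay on many chromosomes, with 7 on chromosome 6 (14.3%, beside 5.21% of tested genes), 6 on chromosome 11 (12.2%, beside 5.71%) and 5 on chromosome 1 (10.2%, beside 10.2%). In 2 cases members lay within 100 kb of each other. PAQR9 and PCOLCE2 are 59958 bp apart on chromosome 3, and KCNS1 and PI3 are 73775 bp apart on chromosome 20.

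Genes near the members were then compared. They were taken by position, but only those that passed the filter on low counts were tested, and no neighbour is itself within the limits of the rule. Of 426 annotated genes with a body within 100 kb of a member, 124 were tested. By edgeR's quasi-likelihood test at an adjusted p under 0.001, 62 of the 124 were higher and 20 lower (16.1%). Among all tested genes that are no member, 27.6% were higher and 28.8% lower. The median log2 fold change of the neighbours was 0.33, beside 0.005 for those genes. The share that was higher was 61.5% of 13 genes that overlap a member, 52.5% of 61 up to 50 kb away, 44.0% of 50 between 50 and 100 kb and 37.4% of 107 between 100 and 200 kb. It was 51.5% on the strand of the member and 48.3% on the other. Among 42 members with a tested neighbour, 31 had more higher than lower ones, 7 more lower and 4 as many of each.

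**Figure D4:**
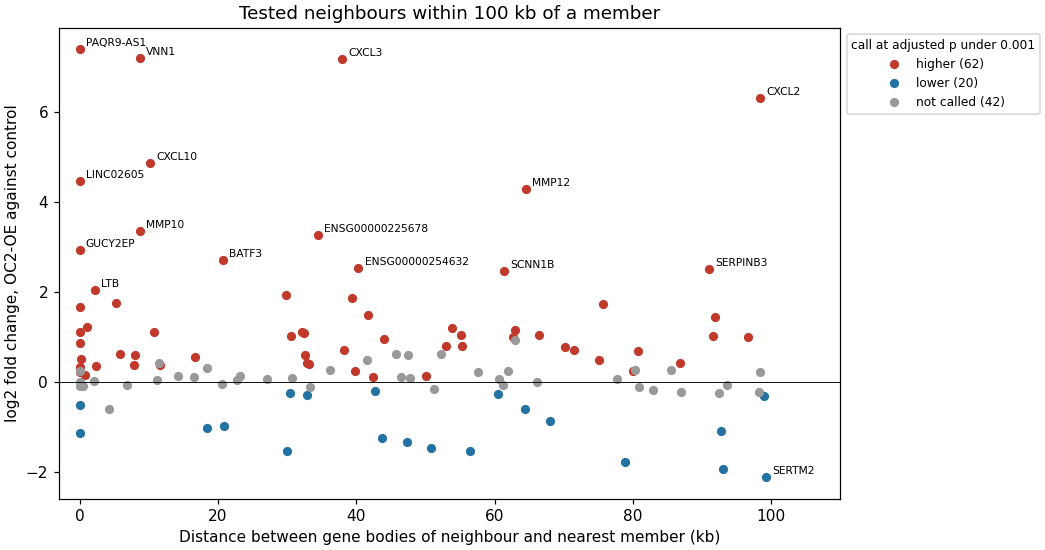
Log2 fold change (vertical axis) of the 124 tested neighbours by distance to the nearest member (horizontal axis, kb), with 62 called higher (red), 20 lower (blue) and 42 not called (grey). Names mark changes of at least 2 on the log2 scale, all but SERTM2 higher, and the positions of PAQR9-AS1 and VNN1, with no control count, depend on the fit's prior count.

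A rise of at least 2 on the log2 scale was called in 15 neighbours (12.1%), beside 2.12% of all tested genes that are no member, and a fall of that size in 1. Of the 15, 7 reached the filter's minimum in no control library (PAQR9-AS1, VNN1, LINC02605, MMP12, ENSG00000225678, SERPINB3 and GUCY2EP), so they entered the test only through the OC2-OE libraries and could only be called higher. Without genes at the minimum in no library of a group, 8 of 116 neighbours (6.9%) rose by that much, beside 1.34% of all 16666 such genes that are no member, and 55 (47.4%) were higher and 19 (16.4%) lower at any size, beside 27.4% and 28.3%. Among neighbours with a control count, the chemokine genes CXCL3, CXCL2 and CXCL10 had the largest rises. CXCL3 (11, 8 and 6 control counts, 1390, 1280 and 1253 OC2-OE counts) and CXCL2 (42, 63 and 32, then 4048, 3621 and 3978) rose by 7.19 and 6.32 near CXCL5, and the pair are close copies of each other, so reads between them may be split. CXCL10 lies 10185 bp from CXCL11 and rose by 4.86. The chemokine CXCL5 itself had far fewer counts than these neighbours.

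Other called neighbours lay in the protease cluster around MMP1 on chromosome 11. MMP10, 8773 bp away, went from 11, 6 and 9 to 99, 80 and 108 counts (log2 fold change 3.36, standard error 0.25, adjusted p = 3.87e-25). MMP12 had 1, 1 and 2 control counts and 25, 32 and 33 OC2-OE counts, just short of the OC2-OE limit. ENSG00000225678 in that cluster rose by 3.28. SCNN1B, the beta subunit of the sodium channel, rose by 2.47 beside SCNN1G, LTB by 2.05 beside TNF, BATF3 by 2.72 beside LINC02773 and SERPINB3, which has a near-identical copy, by 2.51 beside SERPINB7.

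Several neighbours were themselves almost silent in control cells. PAQR9-AS1, a lncRNA antisense to PAQR9, had no control count and 21, 22 and 22 OC2-OE counts, at least 20.5-fold higher against the floor. VNN1, a vanin gene 8729 bp from VNN3P, had no control count and 21, 15 and 21, at least 18-fold higher. LINC02605, whose body overlaps ENSG00000285744 on the same strand with no shared exon base, had 2 control counts and 55 OC2-OE counts, a ratio of 26.0 with a counting interval of 6.86 to 220. GUCY2EP and ENSG00000254632 rose by 2.93 and 2.53 near ENSG00000290785. SERTM2, 99216 bp from DCX, fell by 2.11.

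Ligands and receptors of the members were examined as a list of 33 partner genes of 21 members, of which 13 were higher, 5 lower, 4 not called and 11 too low to test, beside the 27.8% higher and 28.7% lower among all tested genes. KLB and FGFR4, the co-receptor and receptor of FGF19, rose by 1.56 and 0.36. The receptor of ANGPT2, TEK, had 1, 1 and 0 control counts and none in OC2-OE libraries, and CXCR2 and CRLF2, receptors of CXCL5 and TSLP, had 0 counts in all 6. TNFRSF1A, a receptor of TNF, fell by 1.14, and ADAM17, which sheds TNF, rose by 0.69.

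Partners in adhesion, proteolysis and transport moved as follows. ITGB4, ITGA6 and DST, hemidesmosome partners of COL17A1, rose by 1.92, 0.56 and 1.07. BMP1, the protease that PCOLCE2 enhances, rose by 1.18, and TIMP1, an inhibitor of MMP1, by 2.38, while TIMP2 fell by 0.69. SLC22A17, a receptor of LCN2, went from 105, 92 and 121 to 826, 764 and 808 counts (log2 fold change 2.83, standard error 0.081, adjusted p = 5.27e-62 from edgeR). CX3CL1, the ligand of CX3CR1, rose by 1.88, and SPP1, a ligand of CD44, by 2.43. SPP1 entered the test only through the OC2-OE libraries, and without it 12 of 21 tested partners were higher and 5 lower. SCNN1A, the alpha subunit and by far the most counted of the sodium channel, fell by 1.05.

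Gene lists for inflammation held 4 members. Of 17 other tested genes of the interferon-gamma type response, which also holds CXCL11, all 17 were higher, with a median log2 fold change of 1.64, beside 27.8% higher among all tested genes. HLA-DRA and APOL3 entered the test only through the OC2-OE libraries and could only be called higher, and without them all 15 were higher. With other tests, normalization, filters or thresholds, or 1 library left out, 16 to 18 of the list were higher and none lower. The other 7 genes of the list were too low to test. Among them were IRF8 with no count, CXCL9 with 1 control and 0 OC2-OE counts, IDO1 with 1 and 2, GBP5 with 6 and 5 and CIITA with 7 and 15. The untested genes not named had more counts after OC2 enforced expression, at most 4 in control and at least 24 in OC2-OE libraries. GBP1 rose by 5.31 and APOL1 by 4.05, and HLA-DRA had 1 control count and 58 OC2-OE counts, a ratio of 54.8 (9.45 to 2201). Of 19 other tested chemokines and cytokines, beside CXCL5, TNF and TSLP, 12 were higher and 2 lower, or 11 and 2 of 18 without CSF3, which entered in the same way. CSF3 had no control count and 79 OC2-OE counts, at least 24.9-fold higher, which is under the OC2-OE limit.

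Gene lists for epithelia were mixed, and 27.8% of all tested genes were higher and 28.7% lower. Of 10 other tested hepatocyte and acute phase genes, beside C4BPA and LCN2, 3 were higher and 1 lower. VTN was up by 1.94 and TTR down, its change being -2.72. Without the filter on low counts 3 genes of that list were higher and 3 lower, and without control replicate 1 there were 3 and 2. Of 13 tested airway and gut secretory genes 7 were higher and 5 lower, with CEACAM6, LYZ and CEACAM5 up by 2.87, 2.44 and 2.11. LYZ entered the test only through the OC2-OE libraries, and without it 6 of 12 were higher and 5 lower. LTF, MUC4, AGR2 and MUC1 of that list changed by -1.70, -1.10, -0.87 and -0.76. Of 10 tested NE genes 3 were higher and 6 lower, and GRP, DDC and NCAM1 changed by -4.41, -2.52 and -2.0.

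Markers of other cell types were near 0 for some lists and not for others. Squamous genes summed to at most 0.274 CPM and erythroid genes to at most 0.375 CPM in any library, and none was tested. KRT6A, KRT13, SPRR3, DSG3 and IVL, and HBB, HBG1 and HBG2, had 0 counts in all 6 libraries, as did AIF1, TYROBP, S100A8 and S100A9 of monocytes and macrophages. Of the markers tested, the 1 of T and NK cells was not called, PAX5 of the B cell list (36.9 CPM in control) fell by 0.63, and of 2 monocyte and macrophage genes CD14 rose by 0.71 and MRC1 changed by -1.82. Of 4 endothelial genes 2 were lower and 2 not called, CDH5 and KDR changing by -4.03 and -2.77, and of 4 fibroblast and muscle genes PDGFRB and COL1A1 rose by 2.48 and 0.37 and DES changed by -1.06. PDGFRB entered the test only through the OC2-OE libraries and CDH5 only through the control libraries, so each could be called in 1 direction only. Summed levels in control and OC2-OE libraries were 35.7 to 38.4 and 23.2 to 24.4 CPM for B cells, 6.03 to 6.37 and 6.64 to 7.52 CPM for monocytes and macrophages, 15.5 to 16.9 and 6.0 to 6.52 CPM for endothelium and 24.5 to 27.0 and 29.7 to 33.5 CPM for fibroblasts and muscle.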

How the data were processed

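The authors prepared stranded poly(A) libraries and, per the labels and file headers, aligned reads with STAR 2.7.9a and counted read pairs per gene on that strand with featureCounts 1.6.0. The deposited values are raw counts for 62696 genes of GENCODE release 42 on GRCh38, with exons summed and no normalization. FastQC 0.11.8, edgeR and limma are also named in the submitters' processing notes. Replicates are numbered 1 to 3 per group and the paper calls them independent experiments. Their common spread beyond counting error was small, at 2.2% (edgeR's biological coefficient of variation). Whether each replicate was a separate transduction is not given in the sources used here. The p-values therefore measure only the spread between these libraries, and not a spread between transductions.

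Here CPM and RPKM used TMM library sizes, and genes kept by filterByExpr (17307) were tested with edgeR 4.0.16's quasi-likelihood test in R 4.3.3, with Benjamini-Hochberg adjustment and a threshold of 0.001. In all 9776 genes (56.5%) were called, 4810 higher and 4966 lower. Standard errors are the log2 fold change over the root of F. Ratios of members carry exact conditional binomial intervals (95%), or a bound against 3 counts over the group. That bound takes the OC2-OE sum without its counting error, so it is not on the same basis as the lower end of an interval. Types came from GENCODE release 29 and promoters from RefSeq. With 17017 genes simulated for this comparison (OC2-OE against control), 67.7%, 89.9% and 98.4% of changes of 0.5, 1 and 2 on the log2 scale were recovered, with 1 false call.

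The members, the lists, the partner genes and the classes were chosen with earlier results of these data known. Lists were written from general knowledge: NE SCLC, hepatocyte and acute phase, airway and gut secretory epithelium, interferon-gamma type response, chemokines and cytokines, and markers of other cell types. Genes named are the 20 members with the largest OC2-OE sum, the 10 highest per length and those at 0 in control. Members within 100 kb of another member, those next to a limit and the 4 largest per class are named too. So are the called neighbours past 2 on the log2 scale and up to 3 of the largest called changes per list. Other members, list genes, partners and families were named after their values were seen. Alternatives were other limits, scaled counts, each library left out, DESeq2 size factors in edgeR, the Wald test of DESeq2 1.42.0, limma 3.58.1 voom, no filter, the replicate number as a block, an adjusted p under 0.05, and other distances and types of neighbours. Python 3.11.15 was used for the rest. A gene of the marker lists is not reported here.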

Additional observations from a re-analysis of the deposited data

How the results depend on the processing

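The number of members depends on the limits: 28 genes met a control sum of at most 10, 132 an OC2-OE sum of at least 50 and 18 an OC2-OE sum of at least 200. It was 64 with a control sum of at most 20, 42 with scaled counts, and 45 to 56 with 1 library left out. In that last setting the limit of the group that lost a library was lowered in proportion. DCX was lost without control replicate 1, FGF19, CXCL5, ADD3-AS1 and RAB3IL1 without control replicate 2, ENSG00000290785 and LINC02404 without control replicate 3, CD44, CX3CR1, FBXO40 and MYOSLID without OC2-OE replicate 1, CX3CR1 and ENSG00000290785 without OC2-OE replicate 2, and C4BPA and LINC02844 without OC2-OE replicate 3. Within 50 kb 40 neighbours were higher and 10 lower, and within 200 kb 102 and 44, since fewer or more genes enter. Without neighbours that overlap a member 54 were higher and 18 lower, without those of CXCL5 and CXCL11 59 and 18, and without those of the members at 25 to 34 Mb of chromosome 6 51 and 18, and without genes at the filter's minimum in no library of a group 55 and 19 (40 and 18 list genes in place of 45 and 19), all 4 chosen after seeing the data. Leaving out 1 library gave 57 to 61 higher and 18 to 21 lower neighbours. Other tests, normalization or filter gave 54 (DESeq2) to 65 (no filter) higher and 19 to 21 lower neighbours, and an adjusted p under 0.05 gave 75 and 24. With the replicate number as a block 62 neighbours were higher and 20 lower. Same-numbered libraries deviated together by correlations of 0.00115, 0.0301 and 0.0252, so the numbers did not pair them. Members with under 200 counts are limited by depth.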

Other observations

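The other genes of the members' families, taken by symbol, are few, and their counts stand beside 27.8% higher and 28.7% lower among all tested genes. Of 9 other tested CXCL chemokine genes 6 were higher and 2 lower, of 6 other PAQR receptor genes 4 were higher and 2 not called, and of 3 other CES carboxylesterase genes 3 were higher. Of 12 other MMP genes 4 were higher and 4 lower, and of 9 other FGF genes 3 were higher and 4 lower. Of 10 other subunits of GABA receptors 1 was higher and 6 were lower, while GABRP went from no control count to 647 OC2-OE counts. MMP12, MMP25, FGF17 and FGF22 entered the test only through the OC2-OE libraries, and CXCL13 and GABRG3 only through the control libraries. Without them 3 of 10 MMP and 1 of 7 FGF genes were higher and 4 of each lower. Likewise 6 of 8 CXCL genes were higher and 1 lower, and 1 of 9 GABA receptor genes was higher and 5 lower. Of 6 other tested SERPINB genes 2 were higher and 1 lower, or 1 and 1 of 5 without SERPINB3. Of 3 other SCNN1 genes 2 were higher and 1 lower, and of 2 other SLC17A genes 1 was higher and 1 lower. Of 2 other S1PR genes 1 was lower, as was the 1 other KCNS gene. VNN1, the 1 other vanin gene tested, was higher and, like SERPINB3, entered only through the OC2-OE libraries. No other ANGPT gene was tested.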
